A study of Mus musculus with 56 samples.

Results

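P2ry12, Tmem119, Cx3cr1, Csf1r, P2ry13, Gpr34, Siglech, Fcrls and Sall1 are genes often used to mark microglia in their resting, or homeostatic, state. They were taken as a list by name and make up 9 of the 43629 gene IDs in the count tables. All 9 passed the filter on low counts that left 18838 genes for testing.

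Microglia are the resident macrophages of the central nervous system. In healthy tissue they extend fine processes that sense nucleotides, chemokines and lipids through receptors such as P2ry12, P2ry13, Cx3cr1 and Gpr34, and they depend on signals through Csf1r for survival. In neurodegeneration, amyotrophic lateral sclerosis (ALS) models included, microglia are known to lower parts of this program while raising another set of genes that includes Lgals3, Cst7 and Itgax.

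RNA was sequenced from 3 mouse lines at 9 and 14 weeks of age, in 12 groups of 3 to 6 libraries and 56 libraries in all. Every mouse carried the Chat bacTRAP transgene (line DW167), which places an EGFP-tagged ribosomal protein L10a in cholinergic neurons by way of the Chat gene. One group of mice carried this transgene alone (Chat bacTRAP), one also carried human TDP-43 with the A315T mutation (TDP-43A315T, line 95Balo/J), and one also carried wild-type human TDP-43 (TDP-43WT, line 3cPtrc/J). Both human transgenes are driven by the prion promoter, which is active widely in the nervous system. The mice are described as female, with motor symptoms in the TDP-43A315T line at 14 but not at 9 weeks. Of the libraries, 31 hold RNA of all spinal cord cells and 25 hold RNA pulled down with the tagged ribosomes (MN-TRAP). By design, microglia carry no tag, so the spinal cord libraries are where these genes are measured in their own tissue. The labels call the tissue cervical and the study's methods speak of the spinal cord as a whole, which was not settled here.

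Spinal cord libraries held 17.5 to 86.7M counts (M, mega-counts), whereas MN-TRAP libraries ran from 0.472 to 256M and 4 of them fell below 5M. The 8 motor neuron markers were higher in MN-TRAP than in spinal cord in each line. Reads of the pseudogene Lamr1-ps1 were at 0.480 to 2.93 CPM (counts per mega-count of the library) in all 18 TDP-43A315T libraries and at 0 to 0.0398 CPM in 35 control libraries, but 3 MN-TRAP libraries labelled as controls also held them. These are the libraries labelled TDP-43WT 14 weeks replicate 5 (1.69 CPM), TDP-43WT 9 weeks replicate 3 (1.11 CPM) and Chat bacTRAP 9 weeks replicate 4 (1.34 CPM). The first of these had counts closer to those of 1 TDP-43A315T library than any other of 1378 pairs, and the last stood in the next closest pair, with another TDP-43A315T library. All 3 were kept under their labels, and MN-TRAP counts are also given without them. One MN-TRAP library of Chat bacTRAP mice at 14 weeks held Y-linked reads.

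Many microglial genes carry binding sites of PU.1, the myeloid transcription factor encoded by Spi1, whose core is rich in purines. RefSeq promoter sequences (GRCm38.p6) were found for 6 of the 9 members, and in the 250 bases before the start of transcription 4 of these held, on either strand, the motif GAGGAA (in 23.3% of all 32851 promoters of that length) or the motif AGGAAG (in 29.5%), beside 39.2% of all promoters with at least 1 of them. The members are counted by gene, and Sall1 counts if any of its starts held a motif, whereas the shares are of single promoters. The promoters of P2ry12, P2ry13 and Fcrls are shown because P2ry12 and P2ry13 are neighbours and because P2ry12 and Fcrls part ways in the spinal cord values below. Capitals mark both motifs and their reverse complements, and the motifs overlap where a run has 7 letters. All are given 5′ to 3′ on the minus strand.
P2ry12, chr3:59262986-59263235: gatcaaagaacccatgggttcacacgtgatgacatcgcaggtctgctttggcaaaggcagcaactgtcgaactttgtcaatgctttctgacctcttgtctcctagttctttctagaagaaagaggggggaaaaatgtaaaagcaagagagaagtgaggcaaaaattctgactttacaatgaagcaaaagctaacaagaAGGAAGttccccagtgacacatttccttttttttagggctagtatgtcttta
P2ry13, chr3:59210883-59211132: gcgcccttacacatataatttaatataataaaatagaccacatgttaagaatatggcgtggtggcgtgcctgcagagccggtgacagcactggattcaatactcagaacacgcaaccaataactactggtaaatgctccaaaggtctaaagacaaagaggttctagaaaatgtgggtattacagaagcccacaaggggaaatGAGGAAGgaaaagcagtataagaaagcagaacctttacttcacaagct
Fcrls, chr3:87263525-87263774: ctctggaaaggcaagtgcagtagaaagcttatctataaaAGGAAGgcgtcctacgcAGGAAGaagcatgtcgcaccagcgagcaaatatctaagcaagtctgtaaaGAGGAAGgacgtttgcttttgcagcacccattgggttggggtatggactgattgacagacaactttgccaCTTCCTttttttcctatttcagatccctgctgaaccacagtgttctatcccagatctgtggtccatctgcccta
P2ry12 and P2ry13 each held 1 run, starting 52 and 48 bases before the start of transcription, and Fcrls held 4. Of the remaining promoters, 1 of the 3 Sall1 starts held a run, and those of Cx3cr1 and Siglech held none. The letters alone do not show that a factor binds. Tmem119, Gpr34 and Csf1r are named without sequence.

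On GRCm38, P2ry12 (ENSMUSG00000036353) lies at chr3:59216272-59262871 and P2ry13 (ENSMUSG00000036362) at chr3:59207892-59210882, both on the minus strand and both inside the gene Med12l on the opposite strand. Fcrls (ENSMUSG00000015852) lies on the same chromosome at chr3:87250758-87263738, minus strand. Tmem119 (ENSMUSG00000054675) is at chr5:113793729-113800516, Cx3cr1 (ENSMUSG00000052336) at chr9:119901616-120069879 and Sall1 (ENSMUSG00000031665) at chr8:89027235-89044162, each on the minus strand. On the plus strand lie Csf1r (ENSMUSG00000024621) at chr18:61100598-61132149, Siglech (ENSMUSG00000051504) at chr7:55768178-55778925 and Gpr34 (ENSMUSG00000040229) at chrX:13632089-13640858, the last inside Cask on the opposite strand. Csf1r shares 873 exon bases, 15.1% of its own, with Hmgxb3 on the opposite strand, and since featureCounts at its standard settings, which the study's methods name, counts without strand, reads from the bases they share cannot be told apart. For the other members the annotation leaves 9 shared exon bases in P2ry12 with Med12l and 78 in Cx3cr1 with an antisense gene.

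Levels of single genes are given as normalized counts, that is the deposited counts divided by 1 size factor per library. All 9 genes were detected in each of the 31 spinal cord libraries, at 87.5 or more normalized counts. Per kilobase of exon, the median over the 31 spinal cord libraries was 229 normalized counts for Sall1, a zinc finger transcription factor that maintains microglial identity, 179 for the ADP receptor P2ry12, 178 for Csf1r, the receptor of Csf1 and Il34, 162 for the membrane protein Tmem119 and 154 for the fractalkine receptor Cx3cr1. It was 121 for the Fc receptor-like protein Fcrls, 96.2 for the lysophosphatidylserine receptor Gpr34, 62.1 for the second ADP receptor P2ry13 and 49.8 for the sialic acid-binding lectin Siglech. The upper part of this order was not firm, since P2ry12 exceeded Csf1r in 15 of 31 libraries, and each neighbour from Sall1 to Gpr34 exceeded the next in 21 to 23 of 31 apart from that pair. At the lower end Gpr34 exceeded P2ry13 in 31 and P2ry13 exceeded Siglech in 24 of 31 libraries.

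The comparison of TDP-43A315T with each control line in whole spinal cord asks whether resting-microglia transcripts changed before or after symptoms. None of the 9 genes passed the test used throughout, which was edgeR's quasi-likelihood test with Benjamini-Hochberg adjustment over all genes, calling an adjusted p below 0.05 with at least a 2-fold change. With that test 0 of 9 members were called, and 0 had an unadjusted p below 0.05, against Chat bacTRAP or TDP-43WT at 14 or 9 weeks. DESeq2 also called 0, as did limma-voom. Few genes of any kind were called here, namely 0.0212% of all genes against Chat bacTRAP and 0.0265% against TDP-43WT at 14 weeks, and 0.0372% and 0.0212% at 9 weeks. Between the control lines 0 of 9 were called as well, beside 0.00531% of all genes at 14 weeks and 0% at 9 weeks. The libraries of TDP-43A315T overlapped those of the control for all 9 members in each comparison, beside 3.03%, 5.14%, 1.96% and 4.11% of all genes with no overlap, in the same order. Each TDP-43A315T group enters the comparison with both controls, so these results are not independent of each other. In bulk RNA, fewer microglia and less RNA per cell cannot be told apart.

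**Figure D1:**
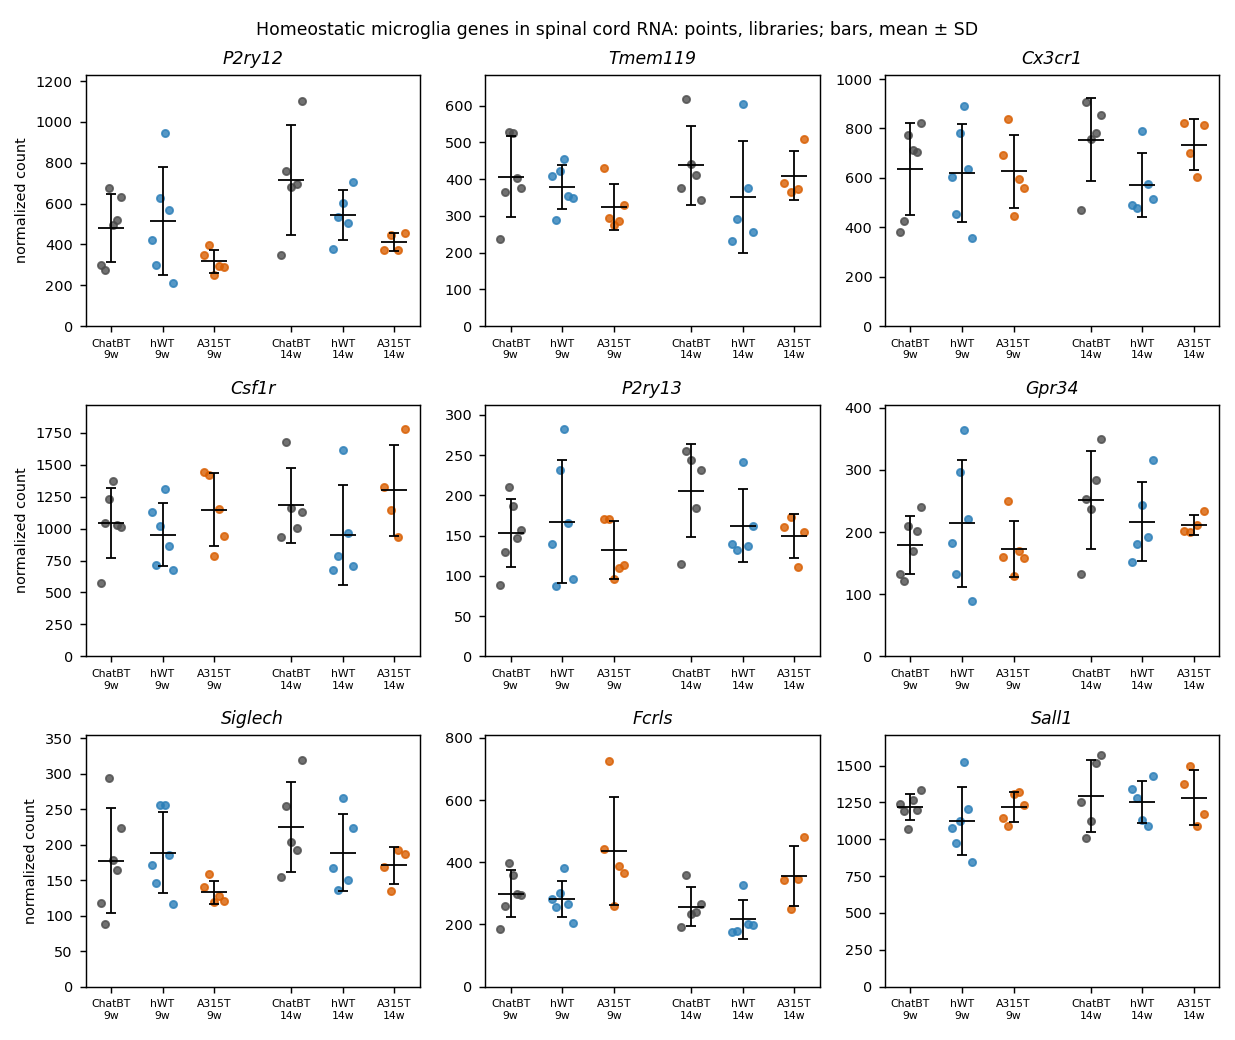
Normalized counts of the 9 genes in the 31 spinal cord libraries, with Chat bacTRAP, TDP-43WT and TDP-43A315T at 9 weeks and then at 14 weeks along the x axis; points are libraries and bars are mean ± SD. For every gene the libraries of TDP-43A315T overlapped those of each control line at both ages, and P2ry12 at 9 weeks stayed between 252 and 398 in TDP-43A315T.

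P2ry12 guides microglial processes towards ADP released at sites of injury. At 14 weeks its spinal cord libraries held 372, 446, 372 and 455 normalized counts in TDP-43A315T (411 ± 45.3, SD, n = 4). The TDP-43WT libraries held 377, 533, 604, 505 and 707 (545 ± 122, n = 5). Those of Chat bacTRAP held 346, 759.9, 681, 697 and 1102 (717 ± 269, n = 5). One control library in each line thus lay within the TDP-43A315T range or below it, and the others lay above.

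At 9 weeks P2ry12 was at 346, 398, 252, 295 and 291 normalized counts in TDP-43A315T (317 ± 56.6, n = 5). Its lowest, median and highest values were 213, 496 and 948 in TDP-43WT (513 ± 264, n = 6) and 277, 506 and 679 in Chat bacTRAP (483 ± 166, n = 6). On the log2 scale the fold changes of TDP-43A315T were -0.76 (SE 0.66) relative to Chat bacTRAP and -0.42 (SE 0.65) relative to TDP-43WT at 14 weeks, and -0.59 (SE 0.59) and -0.68 (SE 0.60) at 9 weeks. All 4 estimates were negative, and each edgeR adjusted p was 1.0.

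P2ry13, the neighbour of P2ry12 and likewise a receptor for ADP, had smaller differences. At 14 weeks it was at 149.7 ± 27.3 normalized counts in TDP-43A315T, 162 ± 45.7 in TDP-43WT and 206 ± 57.9 in Chat bacTRAP (SD; n = 4, 5 and 5). At 9 weeks the means were 132 ± 36.0, 167 ± 76.6 and 153 ± 42.7 (n = 5, 6 and 6). The log2 fold changes ranged from -0.42 (SE 0.56) to -0.12 (SE 0.55), and the groups overlapped at both ages.

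Gpr34, which responds to lysophosphatidylserine, was nearly level across the lines. Its 14-week libraries of TDP-43A315T held 201, 200.1, 212 and 234 normalized counts (212 ± 15.8, n = 4), within a range of 133 to 349.8 over the 10 control libraries of that age. Fitted log2 fold changes of Gpr34 lay between -0.29 (SE 0.58) and -0.03 (SE 0.58).

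Cx3cr1 receives the neuronal ligand Cx3cl1. It was at 735 ± 103 normalized counts in TDP-43A315T, 570.0 ± 129 in TDP-43WT and 755 ± 169 in Chat bacTRAP at 14 weeks (SD; n = 4, 5 and 5). Its log2 fold change was 0.00 (SE 0.52) relative to Chat bacTRAP and 0.36 (SE 0.52) relative to TDP-43WT. At 9 weeks the 3 means were 626 ± 147, 619.9 ± 198 and 637 ± 186 (n = 5, 6 and 6), closer to each other than 1 SD within any group.

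Csf1r had positive estimates in all 4 comparisons. At 14 weeks its libraries held 1329, 1149, 937 and 1778 normalized counts in TDP-43A315T (1298 ± 358, n = 4), 675, 784, 1616, 963 and 708 in TDP-43WT (949 ± 389, n = 5) and 930.2, 1679, 1161, 1007 and 1128 in Chat bacTRAP (1181 ± 294, n = 5). A single TDP-43WT library exceeded all but 1 of the TDP-43A315T libraries. The log2 fold changes of Csf1r were 0.17 (SE 0.43) and 0.44 (SE 0.43) at 14 weeks and 0.15 (SE 0.39) and 0.28 (SE 0.39) at 9 weeks, relative to Chat bacTRAP and TDP-43WT.

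Among the surface markers, Fcrls ran opposite to P2ry12. At 14 weeks its libraries held 343, 249, 345 and 482 normalized counts in TDP-43A315T (355 ± 96.0, n = 4), 176, 178, 326, 202 and 198 in TDP-43WT (216 ± 62.5, n = 5) and 191, 358, 232, 239 and 266 in Chat bacTRAP (257 ± 62.5, n = 5). At 9 weeks it was at 443, 725, 258, 388 and 367 in TDP-43A315T (436 ± 175, n = 5), beside 205, 273 and 381 (lowest, median and highest) in TDP-43WT and 184, 297 and 399 in Chat bacTRAP. Most TDP-43A315T libraries stood at the upper end, with an overlap at each age. The fitted log2 fold changes of Fcrls were 0.50 (SE 0.45) and 0.71 (SE 0.45) at 14 weeks and 0.56 (SE 0.41) and 0.64 (SE 0.41) at 9 weeks, relative to Chat bacTRAP and TDP-43WT, with an edgeR adjusted p of 1.0 each.

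Siglech tended the way of P2ry12. Its 5 libraries of TDP-43A315T at 9 weeks held 139.6, 158, 119.6, 127 and 120.3 normalized counts (133 ± 16.2), whereas the means were 188 ± 57.2 in TDP-43WT and 177 ± 74.0 in Chat bacTRAP (n = 6 each). At 14 weeks Siglech was at 171 ± 26.2, 188 ± 54.3 and 225 ± 63.7 in TDP-43A315T, TDP-43WT and Chat bacTRAP. The log2 fold changes were between -0.49 (SE 0.53) and -0.15 (SE 0.59).

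Tmem119 and Sall1 showed no common direction of note. Tmem119 was at 409.6 ± 67.3, 352 ± 151 and 438 ± 108 normalized counts at 14 weeks in TDP-43A315T, TDP-43WT and Chat bacTRAP (n = 4, 5 and 5). Its log2 fold changes were -0.06 (SE 0.55) and 0.21 (SE 0.55) at 14 weeks and -0.31 (SE 0.50) and -0.22 (SE 0.50) at 9 weeks. Sall1 was the steadiest member, with means of 1283 ± 184, 1254 ± 143 and 1294 ± 243 normalized counts at 14 weeks and log2 fold changes between 0.01 (SE 0.31) and 0.12 (SE 0.31).

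Over the 9 members, 4 estimates were higher and 5 lower in TDP-43A315T relative to Chat bacTRAP at 14 weeks, with a median log2 fold change of -0.06 beside -0.01 for all genes tested. Relative to TDP-43WT the split was 5 and 4 and the median 0.02, beside 0.01. At 9 weeks 3 and 4 of 9 were higher, with medians of -0.03 and -0.22. No direction was common to the list.

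How strictly these values bound a change depends on the spread that all 56 libraries share in the fit. When the 31 spinal cord libraries were fitted alone, edgeR again called 0 of 9 members in each comparison, with 2 and 1 members at an unadjusted p below 0.05 at 14 weeks and 2 and 3 at 9 weeks, relative to Chat bacTRAP and TDP-43WT. The nearest were Fcrls relative to TDP-43WT at 9 weeks (adjusted p = 0.138) and P2ry12 in the same comparison (adjusted p = 0.198). limma-voom with sample quality weights gave P2ry12 a log2 fold change of -0.77 (adjusted p = 0.00269) relative to TDP-43WT at 9 weeks and -0.64 (adjusted p = 0.0233) relative to Chat bacTRAP at 14 weeks. It gave Fcrls 0.83 (adjusted p = 0.00218) and 0.58 (adjusted p = 0.0405) relative to TDP-43WT and Chat bacTRAP at 14 weeks. It also passed Csf1r (0.69; adjusted p = 0.00411) and Cx3cr1 (0.52; 0.0218) relative to TDP-43WT at 14 weeks, Siglech (-0.55; 0.00781) relative to TDP-43WT at 9 weeks and P2ry12 (-0.60; 0.0461) relative to Chat bacTRAP at 9 weeks, by limma-voom adjusted p alone. All of these remained below 2-fold. The share of all genes passing in the same way is not given here. No excess among the members is read from these values or from the counts at an unadjusted p. P-values measure the spread between libraries labelled as replicates, pooled in the main fit over spinal cord and MN-TRAP. The SE given above for spinal cord carry that pooled spread. For P2ry12 relative to Chat bacTRAP at 14 weeks the SE was 0.66 in the main fit (edgeR unadjusted p = 0.257). It was 0.31 with the spinal cord libraries alone (edgeR unadjusted p = 0.0197). For Sall1 the SE were 0.34 and 0.14. Which libraries came from the same animal is not given in the titles.

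**Figure D2:**
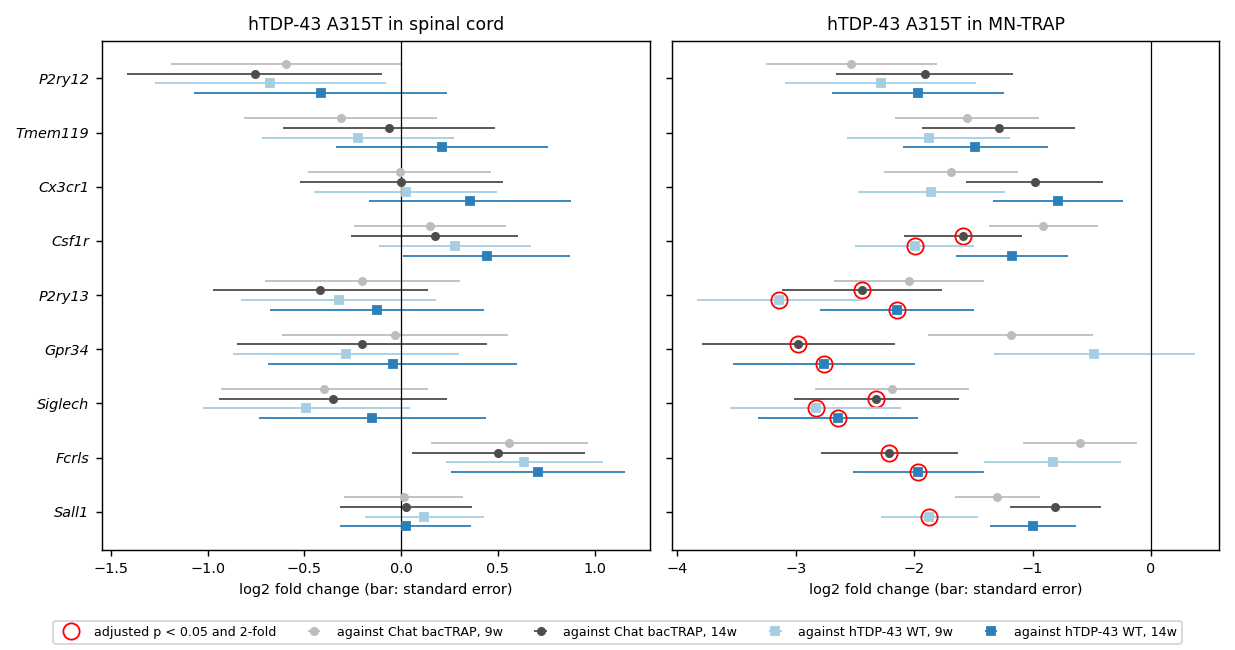
Log2 fold change ± SE of TDP-43A315T relative to Chat bacTRAP and to TDP-43WT for the 9 genes, at 9 and 14 weeks, in spinal cord (left) and MN-TRAP (right); rings mark an adjusted p below 0.05 with at least a 2-fold change. No ring appears in spinal cord, where estimates lie between -0.76 (P2ry12) and 0.71 (Fcrls), and all MN-TRAP estimates are negative.

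P2ry12 and Fcrls, the members with the largest estimates of opposite sign, were then set against each other within each library, which cancels any scaling common to both. This ratio was chosen after the values were seen and is given as a description without a test. In the spinal cord at 14 weeks the median ratio of P2ry12 to Fcrls normalized counts was 1.08 in TDP-43A315T (range 0.942 to 1.79), 2.5 in TDP-43WT (1.85 to 3.57) and 2.91 in Chat bacTRAP (1.81 to 4.14). At 9 weeks it was 0.782 (0.549 to 0.977), 1.77 (1.04 to 2.49) and 1.66 (1.07 to 2.15). The TDP-43A315T libraries did not overlap either control line at either age.

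P2ry12 lay below Fcrls in 6 of 9 spinal cord libraries of TDP-43A315T and in 0 of 22 control libraries. Of the 36 ratios that 9 genes allow, TDP-43A315T stood apart from both control lines at both ages in 2, the other being P2ry12 to Cx3cr1. Over all pairs of 6448 genes whose mean spinal cord level lay in the range of the members' means, 0.202% stood apart in the same way. Pairs that share a gene are not independent, and the ratios were looked at with the values known, so neither share is a test. That ratio had medians of 0.587, 0.880 and 0.889 at 14 weeks and 0.501, 0.750 and 0.752 at 9 weeks in TDP-43A315T, TDP-43WT and Chat bacTRAP. Both ratios that stood apart include P2ry12, which is the numerator of all its ratios because it heads the list. Both ratios were lower in TDP-43A315T than in the control lines.

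**Figure D3:**
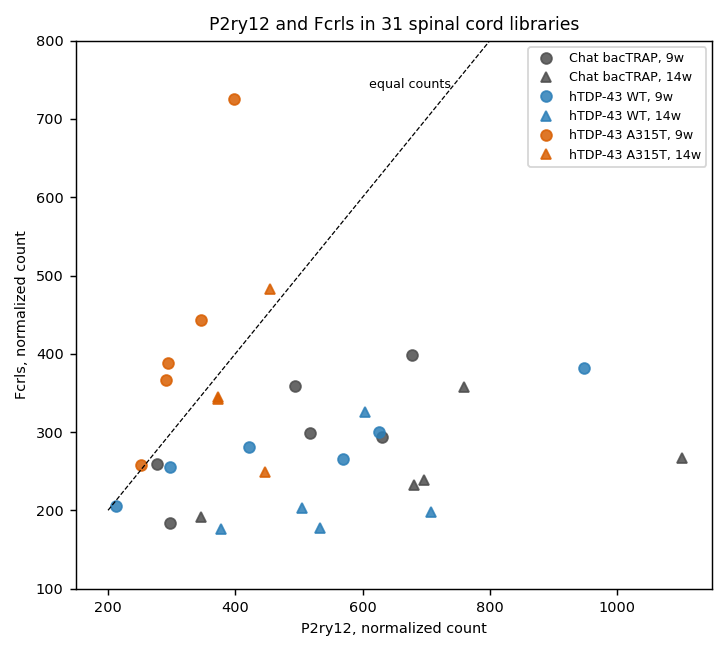
P2ry12 against Fcrls normalized counts in the 31 spinal cord libraries, coloured by line, with circles for 9 weeks and triangles for 14 weeks; the dashed line marks equal counts. In 6 of 9 TDP-43A315T libraries P2ry12 lies below Fcrls, and in 0 of 22 control libraries.

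Between 9 and 14 weeks no member passed the test in the spinal cord of any line. edgeR called 0 of 9 in TDP-43A315T, TDP-43WT and Chat bacTRAP, beside 0% of all genes in each, and 0 members had an unadjusted p below 0.05. DESeq2 and limma-voom called 0 too. The estimates were mostly positive in TDP-43A315T and Chat bacTRAP, with 8 of 9 above 0 in each and medians of 0.24 and 0.23 on the log2 scale, and the median was 0.02 in TDP-43WT. Fcrls was the exception in both, at -0.29 (SE 0.45) and -0.23 (SE 0.41), and P2ry12 was at 0.39 (SE 0.65) and 0.55 (SE 0.59). In the interaction of age with the difference of TDP-43A315T from either control, edgeR called 0 of 9 and 0 had an unadjusted p below 0.05, beside 0% of all genes.

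In the same spinal cord libraries, some genes of activated or disease-associated microglia rose in TDP-43A315T. Of 20 such genes tested, edgeR called 1 higher relative to Chat bacTRAP and 2 relative to TDP-43WT at 14 weeks, and 3 and 2 at 9 weeks, with 0 lower. Lgals3, a galectin of phagocytic microglia, was called in all 4, by 2.34 (SE 0.40) and 2.47 (SE 0.40) on the log2 scale at 14 weeks (edgeR adjusted p = 0.00162 and 0.000803). It stood at 907 ± 246 normalized counts in TDP-43A315T at 14 weeks and 906 ± 264 at 9 weeks. Cst7, which encodes cystatin F, was called higher by 4.33 (SE 0.65; edgeR adjusted p = 0.000138) and 3.78 (SE 0.62; 0.0012) at 9 weeks and by 3.28 (SE 0.68; 0.0403) relative to TDP-43WT at 14 weeks. Itgax, the integrin CD11c, was called relative to Chat bacTRAP at 9 weeks (3.67, SE 0.72; edgeR adjusted p = 0.013). With the spinal cord libraries fitted alone, 4 to 5 of the 20 were called higher in each comparison, Gpnmb among them in all 4 and Clec7a in 3. The remaining genes of this list did not pass, and its median log2 fold change was 0.05 and 0.37 at 14 weeks.

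In the fit of all 56 libraries, no gene of 3 lists of other microglial genes passed the test in the spinal cord. Of 19 further resting microglia genes, edgeR called 0 in each of the 4 comparisons, with median log2 fold changes of -0.12, 0.21, -0.06 and -0.08. Of 20 genes expressed by microglia and macrophages in any state, 0 were called, but 17, 20, 19 and 19 had positive estimates, with medians of 0.37, 0.74, 0.53 and 0.46. Cd68, Irf8, Tyrobp and Spi1 had the smallest p among them. With the spinal cord libraries fitted alone, edgeR called 0 and 1 of these 20 higher at 14 weeks and 2 and 3 at 9 weeks, relative to Chat bacTRAP and TDP-43WT, and 0 of the other resting genes or the ligands and partners. The genes called, Cd68, Irf8 and Tyrobp, are named here with their values known. Of 16 ligands and signalling partners of the members, 0 were called, with medians between -0.10 and 0.08. At 14 weeks in TDP-43A315T, the Csf1r ligands Csf1 and Il34 were at 1514 ± 212 and 478 ± 24.9 normalized counts and the Cx3cr1 ligand Cx3cl1 at 6391 ± 471.

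Markers of other cells in the spinal cord were measured beside the members. Of 10 border macrophage genes and 8 genes of monocytes, neutrophils and lymphocytes, edgeR called 0 in the 4 comparisons. In the spinal cord fit alone it called 1 of the border macrophage genes higher relative to TDP-43WT at 14 weeks, Ms4a7 (2.37, SE 0.51; edgeR adjusted p = 0.0272), which is named here with its value known. The 10 endothelial and pericyte markers were lower in estimate for 10, 9, 10 and 10 of 10 genes, with medians of -1.44, -0.33, -1.27 and -1.20 and 0 called. Their summed level was 1382 to 1573 normalized counts in TDP-43A315T, 1141 to 5136 in TDP-43WT and 1340 to 6077 in Chat bacTRAP. Whether that uneven vascular content bears on the microglial genes was not tested.

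From one spinal cord library to the next, 8 of the 9 genes went up and down together. After each group's mean was removed, Pearson's r of a gene with the mean log2 CPM of the other members, Sall1 left out of that mean, was 0.95 for Cx3cr1, 0.89 for P2ry13, 0.84 for P2ry12 and 0.80 for Fcrls over 31 libraries. It was 0.79 for Siglech and Gpr34, 0.76 for Csf1r and 0.59 for Tmem119. Spearman's rho was between 0.58 and 0.95 for these 8 genes, and without the 2 libraries farthest from the median r was between 0.63 and 0.93. Sall1 stood apart, with r of 0.01 and rho of -0.10. These are descriptions of libraries that share their dissection, depth and scaling.

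Sall1 tracked none of the others closely, and which cells its spinal cord RNA came from was not tested. Its 8 pairwise r with the other members lay between -0.43 and 0.33, with a median of 0.04, whereas the 28 pairs without it lay between 0.24 and 0.95, with a median of 0.73. The genes most like the members' mean across the 31 libraries were Cd9 (r = 0.947), Axl (0.941), Golm1 (0.921), Slc14a1 (0.921), Pros1 (0.917), Slco2b1 (0.916), Serpine2 (0.915), Sparc (0.914), Lhfp (0.907) and Ctss (0.906). Of these, Ctss is a lysosomal protease of macrophages, Axl a receptor tyrosine kinase and Pros1 one of its family's ligands. Cd9, Axl, Golm1 and Ctss are on the microglial lists used here. Slc14a1, Pros1, Slco2b1, Serpine2, Sparc and Lhfp are on none of the lists. Which cells the shared variation comes from was not tested. Those most like Sall1 were Dixdc1 (r = 0.887), Fam149a (0.873) and Rasgrp3 (0.870).

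In MN-TRAP, where microglia are not tagged, all 9 estimates were lower in TDP-43A315T in each comparison. At 14 weeks edgeR called 5 of 9 members lower relative to Chat bacTRAP, beside 5.17% of all genes called lower, and 4 of 9 relative to TDP-43WT, beside 4.67%. At 9 weeks it called 0 relative to Chat bacTRAP, beside 0.536%, and 4 of 9 relative to TDP-43WT, beside 2.04%. Relative to Chat bacTRAP at that age, 6 members had an edgeR unadjusted p below 0.05 and DESeq2 called 4. The shares of all genes at that p or called by DESeq2 are not given here. The median log2 fold changes of the members were -1.91, -1.96, -1.55 and -1.88, with those of all genes at 0.09, -0.09, -0.01 and 0.12. These calls rest on the spread estimated over both fractions. With the 25 MN-TRAP libraries fitted alone, edgeR called 0 of 9 in each comparison, with 5, 4, 5 and 5 members at an unadjusted p below 0.05, and it called 0 of 16520 genes of any kind in these 4 comparisons.

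The 3 control libraries that held Lamr1-ps1 reads had sums of 508, 684 and 326 normalized counts over the 9 members, and without them edgeR called 6 and 8 of 9 at 14 weeks and 6 and 7 of 9 at 9 weeks. Without the 4 libraries under 5M counts it called 8, 5, 4 and 5. Single libraries also decided these counts. Relative to Chat bacTRAP at 14 weeks the 5 calls became 1 without Chat bacTRAP replicate 1 and 3 without TDP-43A315T replicate 2. Relative to TDP-43WT at 14 weeks the 4 calls became 1 without TDP-43WT replicate 2 or TDP-43A315T replicate 2 or 4, and 7 without TDP-43WT replicate 5. At 9 weeks the 0 calls relative to Chat bacTRAP became 3, 2 and 5 without Chat bacTRAP replicate 1, 3 and 4, and the 4 calls relative to TDP-43WT became 0 and 7 without TDP-43WT replicate 2 and 3 and 2 without TDP-43A315T replicate 4. Between the 2 control lines 0 of 9 were called at either age by edgeR, beside 13.2% and 0.223% of all genes, with 0 and 1 at an unadjusted p below 0.05. These became 1 at 14 weeks without Chat bacTRAP replicate 1 and 3 at 9 weeks without Chat bacTRAP replicate 2. For the fits that leave libraries out, the shares of all genes called are not given here. No excess among the members is read from the counts of those fits. In the MN-TRAP values below, libraries are listed by replicate number, so those with Lamr1-ps1 reads come last in their control group.

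**Figure D4:**
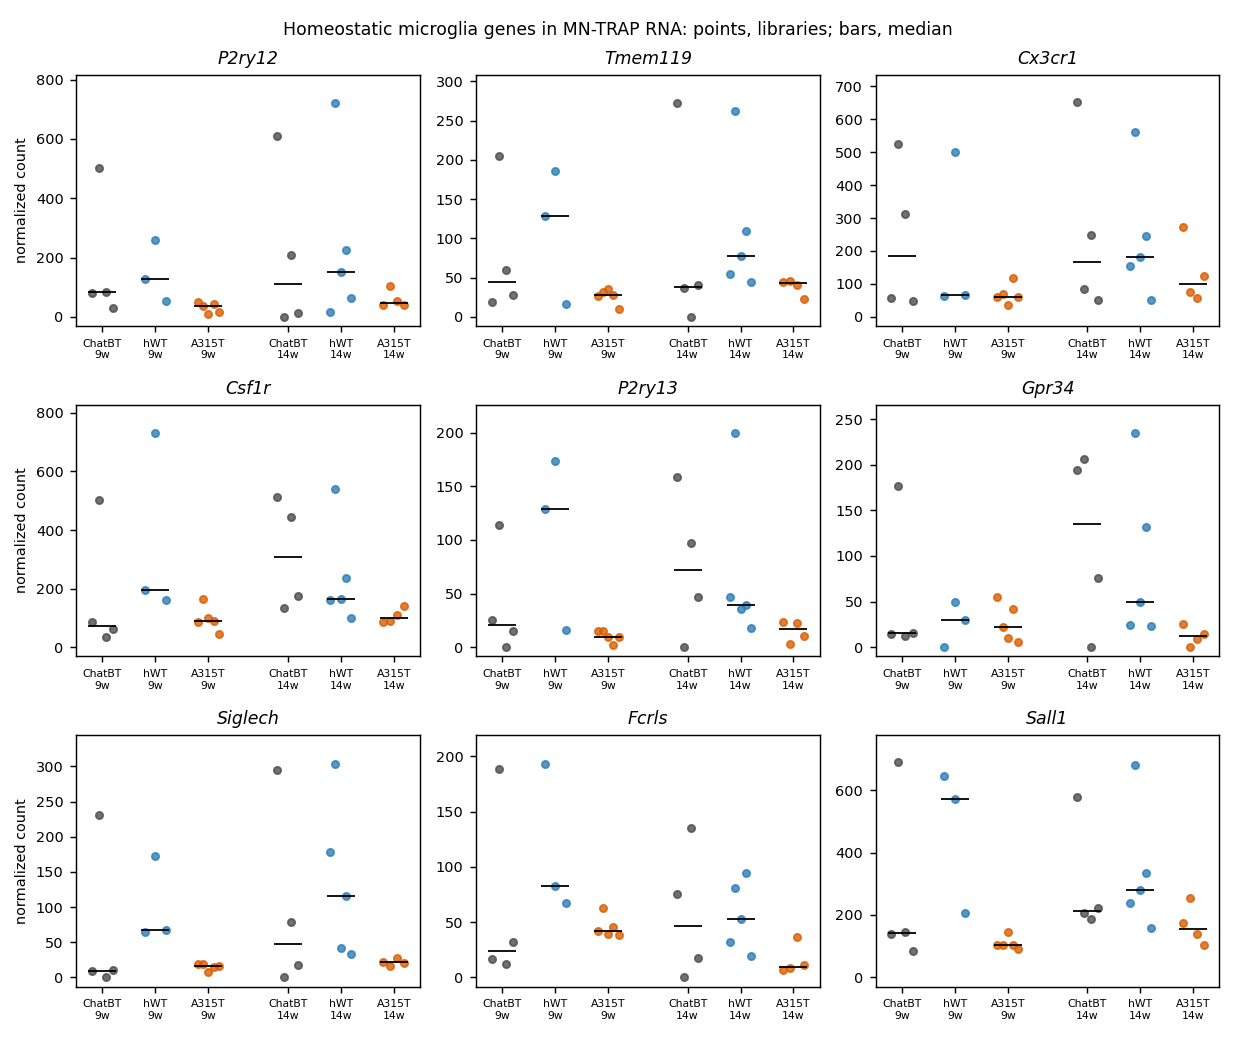
Normalized counts of the 9 genes in the 25 MN-TRAP libraries, with Chat bacTRAP, TDP-43WT and TDP-43A315T at 9 weeks and then at 14 weeks; points are libraries and bars are medians. Control groups are spread widely around single high libraries (P2ry12 at 720.4, 608 and 502), whereas P2ry12 in TDP-43A315T stays between 8.21 and 104.

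Siglech was low in every TDP-43A315T library. In MN-TRAP at 14 weeks it was at 22.1, 16.1, 27.5 and 20.2 normalized counts in TDP-43A315T, at 179, 304, 41.4, 116 and 32.9 in TDP-43WT and at 294, 0, 78.1 and 17.5 in Chat bacTRAP. The TDP-43A315T libraries lay below every TDP-43WT library, which 1.08% of all genes also did, and within the spread of Chat bacTRAP. On the log2 scale the fold changes were -2.64 (SE 0.68; edgeR adjusted p = 0.0122) relative to TDP-43WT and -2.32 (SE 0.70; 0.021) relative to Chat bacTRAP. The value of 0 comes from a library of 2.41M counts, in which 3 counts would equal 36.4 normalized counts, so no lower level could be seen there.

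At 9 weeks Siglech in MN-TRAP was at 19.5, 19.0, 8.21, 15.1 and 15.4 normalized counts in TDP-43A315T, at 64.5, 173 and 67.7 in TDP-43WT and at 8.39, 231, 0 and 10.6 in Chat bacTRAP. It was called relative to TDP-43WT (-2.83, SE 0.72; edgeR adjusted p = 0.0209) and not relative to Chat bacTRAP (-2.19, SE 0.65; 0.0997), where 1 library alone was high. The 0 again stems from a shallow library of 2.49M counts, with 36.1 normalized counts for 3 counts. The TDP-43WT value of 64.5 comes from a library of 0.472M counts, in which 3 counts equal 193 normalized counts. That of 67.7 comes from a library with Lamr1-ps1 reads, so the call relative to TDP-43WT rests on weak values.

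P2ry13 was called in the same 3 comparisons. At 14 weeks its MN-TRAP libraries held 23.6, 2.48, 22.9 and 10.8 normalized counts in TDP-43A315T, 46.9, 199, 35.9, 39.5 and 17.8 in TDP-43WT and 159, 0, 97.6 and 46.6 in Chat bacTRAP. The log2 fold changes were -2.44 (SE 0.68; edgeR adjusted p = 0.0129) relative to Chat bacTRAP and -2.14 (SE 0.65; 0.0312) relative to TDP-43WT. At 9 weeks it was at 14.9, 15.2, 9.70, 1.68 and 9.65 in TDP-43A315T and 129, 174 and 16 in TDP-43WT, with a log2 fold change of -3.14 (SE 0.70; edgeR adjusted p = 0.00683). The groups did not overlap there, as for 1.77% of all genes. The lowest TDP-43WT value, from a library with Lamr1-ps1 reads, was within 1 normalized count of the highest in TDP-43A315T. The value of 129 comes from the library of 0.472M counts, in which 3 counts equal 193 normalized counts, so it is coarse.

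Gpr34 had the largest estimates at 14 weeks, -2.98 (SE 0.81; edgeR adjusted p = 0.0121) relative to Chat bacTRAP and -2.76 (SE 0.77; 0.0203) relative to TDP-43WT. Its MN-TRAP libraries held 25.8, 0, 9.16 and 14.8 normalized counts in TDP-43A315T, 24.1, 234, 49.7, 131 and 22.7 in TDP-43WT and 194, 207, 0 and 75.7 in Chat bacTRAP. The groups overlapped, and the zeros come from libraries in which 3 counts equal 3.71 and 4.50 normalized counts. At 9 weeks Gpr34 was not called, at -1.18 (SE 0.70) and -0.48 (SE 0.85).

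Fcrls, whose spinal cord estimates were positive, was lower in MN-TRAP at 14 weeks. It was at 6.64, 8.67, 36.7 and 10.8 normalized counts in TDP-43A315T, 31.7, 80.7, 52.5, 94.6 and 19.2 in TDP-43WT and 75.8, 0, 135 and 17.5 in Chat bacTRAP. 1 TDP-43A315T library, at 36.7, lay within the range of TDP-43WT, and all 4 lay within that of Chat bacTRAP, whose library at 0 is a shallow one in which 3 counts equal 36.4 normalized counts. Fitted log2 fold changes were -2.21 (SE 0.58; edgeR adjusted p = 0.00926) relative to Chat bacTRAP and -1.96 (SE 0.56; 0.0219) relative to TDP-43WT. At 9 weeks Fcrls was at 42.3, 62.4, 39.6, 45.3 and 38.6 in TDP-43A315T, above every 14-week library of that line, and was not called (-0.60, SE 0.48, and -0.83, SE 0.58). The change with age in TDP-43A315T was -1.76 (SE 0.55; edgeR adjusted p = 0.351), and libraries lower at 14 weeks without overlap were found for 0.738% of all genes.

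Csf1r and Sall1 were called in some of the comparisons. Csf1r in MN-TRAP at 14 weeks was at 84.9, 87.9, 110.0 and 141 normalized counts in TDP-43A315T and at 514, 134, 444 and 175 in Chat bacTRAP, a log2 fold change of -1.59 (SE 0.50; edgeR adjusted p = 0.0265). It was also called relative to TDP-43WT at 9 weeks (-2.0, SE 0.50; edgeR adjusted p = 0.0209). Sall1 at 9 weeks was at 104, 104, 145, 104 and 90.7 in TDP-43A315T and at 645, 571 and 205 in TDP-43WT, a log2 fold change of -1.87 (SE 0.41; edgeR adjusted p = 0.00551). The library at 645 held 24 counts over all 9 genes together, so its single values are coarse.

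P2ry12, Tmem119 and Cx3cr1 were called by edgeR in none of the 4 MN-TRAP comparisons, and DESeq2 called P2ry12 relative to Chat bacTRAP at 9 weeks (log2 fold change -2.51, adjusted p = 0.0374). P2ry12 at 14 weeks was at 39.1, 104, 55.0 and 40.4 normalized counts in TDP-43A315T, 16.5, 720.4, 152, 224 and 62.7 in TDP-43WT and 608, 0, 207 and 11.6 in Chat bacTRAP. Control libraries lay on both sides of the TDP-43A315T values. The log2 fold changes of P2ry12 were -1.91 (SE 0.75) and -1.97 (SE 0.72) at 14 weeks and -2.53 (SE 0.72) and -2.28 (SE 0.81) at 9 weeks, with edgeR adjusted p between 0.0762 and 0.131. Tmem119 ran from -1.88 (SE 0.69) to -1.29 (SE 0.65) and Cx3cr1 from -1.85 (SE 0.62) to -0.79 (SE 0.55).

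With age, edgeR called 0 members in MN-TRAP of any line, beside 0.0106%, 7.03% and 5.15% of all genes in TDP-43A315T, TDP-43WT and Chat bacTRAP. Without Chat bacTRAP replicate 2 of 9 weeks the count in that line became 5 of 9. The share of all genes called in that fit is not given here.

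Markers of other glia were low in the same MN-TRAP libraries. edgeR called 8 and 10 of 10 oligodendrocyte markers lower in TDP-43A315T at 14 weeks, relative to Chat bacTRAP and TDP-43WT, and 1 and 3 of 10 at 9 weeks. The medians were -1.33, -1.79, -1.41 and -1.42, beside -1.91, -1.96, -1.55 and -1.88 for the members. Of 10 astrocyte markers 3, 5, 3 and 1 were called lower, and of 10 endothelial markers 2, 0, 1 and 2. The summed level of the oligodendrocyte markers in MN-TRAP was 45339 to 70228 normalized counts in TDP-43A315T, 59555 to 644239 in TDP-43WT and 44053 to 559675 in Chat bacTRAP, and that of the astrocyte markers was 58856 to 76557, 66191 to 148557 and 58827 to 114508. None of these markers was at 0 in all libraries. How far the amount of carried-over glial RNA accounts for the lower members was not tested.

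**Figure D5:**
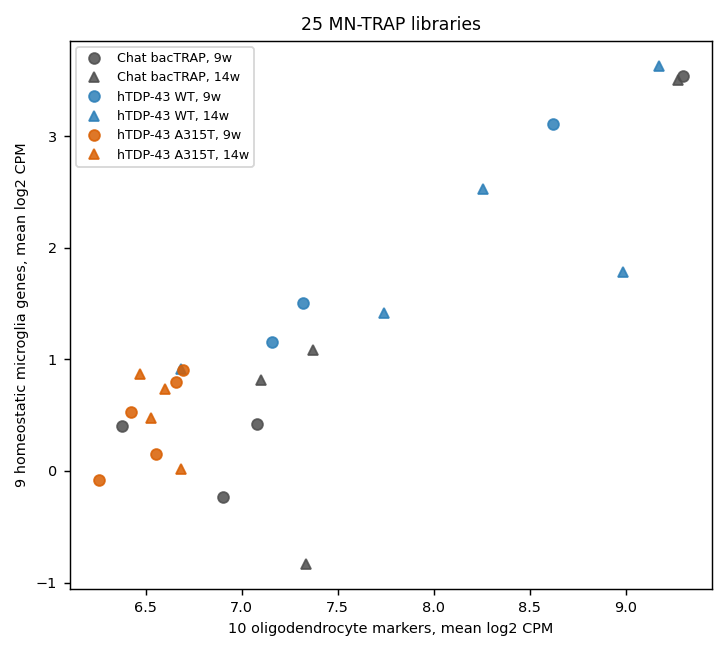
Mean log2 CPM of the 9 members (y axis) against mean log2 CPM of 10 oligodendrocyte markers (x axis) in the 25 MN-TRAP libraries, coloured by line. The TDP-43A315T libraries sit at 6.26 to 6.70 on the x axis and -0.09 to 0.90 on the y axis, whereas the control libraries reach 9.30 and 3.63.

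Other microglial lists were counted in MN-TRAP as well. Of 20 genes expressed by microglia and macrophages in any state, edgeR called 3 and 2 lower at 14 weeks, Laptm5 (-2.17) and C1qa (-2.08 relative to TDP-43WT; edgeR adjusted p = 0.0298) among them, and 0 and 0 at 9 weeks. Of 19 further resting microglia genes 2, 1, 0 and 5 were called lower. Of the 16 ligands and partners 1, 3, 1 and 1 were called lower, among them the integrin subunit Itgb8, which activates Tgfb1, at -1.98 (SE 0.56) and -2.27 (SE 0.55) at 14 weeks. Lgals3 went the other way relative to Chat bacTRAP at 14 weeks, at 3.88 (SE 0.57; edgeR adjusted p = 2.86e-05), as in the spinal cord.

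The members were lower in MN-TRAP than in spinal cord in each line. Relative to spinal cord over both ages, edgeR called 9 of 9 lower in MN-TRAP of TDP-43A315T, beside 24.1% of all genes, 7 of 9 in TDP-43WT, beside 19.8%, and 9 of 9 in Chat bacTRAP, beside 22.8%. The members' median log2 change was -3.21, -1.5 and -1.41. In TDP-43A315T it ran from -3.82 (SE 0.38) for Fcrls to -2.68 for Cx3cr1, and in TDP-43WT P2ry13 (-0.92) and Siglech (-0.51) were not called. The MN-TRAP and spinal cord libraries of TDP-43A315T did not overlap for any of the 9, as for 22.7% of all genes.

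Summed over the 9 genes, the median MN-TRAP library held 9.97% of the median spinal cord level in TDP-43A315T, 29.0% in TDP-43WT and 13.1% in Chat bacTRAP. The lowest, median and highest sums in MN-TRAP were 293, 489.9 and 691 normalized counts in TDP-43A315T (n = 9), 508, 1282 and 3583 in TDP-43WT (n = 8) and 326, 665 and 3348 in Chat bacTRAP (n = 8). The 4 highest libraries, at 3583, 3348, 3137 and 2731, were 1 from each control group, and 5 of the 8 Chat bacTRAP libraries lay within the TDP-43A315T range.

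The difference between lines in this reduction was tested directly. By the study's methods the spinal cord input and its MN-TRAP sample were split from 1 lysate. The titles do not say which libraries share a lysate, so the fit treated all of them as independent. Relative to TDP-43WT, edgeR called a stronger reduction in TDP-43A315T for 5 of 9 members, beside 0.605% of all genes: P2ry13 (-2.42, SE 0.60; adjusted p = 0.0401), Siglech (-2.42, SE 0.63; 0.0496), Fcrls (-2.07, SE 0.50; 0.0321), Csf1r (-1.94, SE 0.45; 0.0266) and Sall1 (-1.5, SE 0.36; 0.0281). Relative to Chat bacTRAP it called Fcrls alone (-1.93, SE 0.48; adjusted p = 0.0413), beside 0.419%. All 9 members had an unadjusted p below 0.05 in both tests. The tests share the TDP-43A315T libraries, and the share of all genes at that p is not given here. With same-numbered libraries of a group taken as 1 lysate, edgeR called 0 of 9 relative to either control. Its unadjusted p then stayed below 0.05 in both tests for P2ry13, Fcrls, Csf1r and Sall1 alone. For Tmem119 relative to Chat bacTRAP it was 0.726. Without the 3 libraries with Lamr1-ps1 reads the counts were 8 and 6 of 9, and limma-voom called 0 and 0. Leaving out single libraries moved the first count between 0 and 7 and the second between 0 and 5. The first was 0 without MN-TRAP replicate 2 of TDP-43WT at either age. The shares of all genes called in these refits are not given here.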

How the data were processed

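The authors deposited raw counts per Ensembl gene, which they obtained with bcl2fastq2 2.17, STAR 2.5.2b and featureCounts 1.5.1 on mm10 (GRCm38). They also deposited a normalized signal, each count over the size factor of its library, printed here as normalized counts. The authors tested with DESeq2 1.14.1. Groups came from the titles. Of 43629 IDs, 42462 had a symbol.

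In R 4.3.3, edgeR 4.0.16 was run on all 56 libraries in a single 12-group model (filterByExpr, TMM, glmQLFit with robust estimation, glmQLFTest). Adjusted p are Benjamini-Hochberg over 18838 genes. The script was tested on simulated data. Alternatives were DESeq2 1.42.0, RLE scaling, no filter, no minimum fold, 1 fraction or 1 fraction and age alone, limma-voom (limma 3.58.1), the replicate number as a block, and omission of each library, of 4 shallow, 3 Lamr1-ps1 and 1 Y-linked libraries.

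The members and lists were chosen with earlier results of these data known. Named were all members and, per list, up to 4 genes of smallest p plus 13 preset ones. The interval for a count of 0 is a floor of 3 counts and covers counting error only. Values of normalized counts carry the unequal depth of MN-TRAP.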

Additional observations from a re-analysis of the deposited data

Results flagged for a closer look

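In groups of 4 to 10 libraries, a library was singled out by its gap to the nearest other, divided by the range of its group. The cut was Dixon's 95% critical value, which chance alone passes in about 1 of 20 groups of independent, normally spread values. It was passed in 15 of 99 member groups. The members vary together within libraries, so these groups are not independent and the 15 is not read against that rate. Chat bacTRAP replicate 2 of MN-TRAP at 9 weeks was high for 6 members, namely P2ry12 (502 normalized counts), Csf1r (504), Gpr34 (177), Siglech (231), Fcrls (189) and Sall1 (691). Chat bacTRAP replicate 1 of MN-TRAP at 14 weeks was high for Tmem119 (272) and Sall1 (579), and TDP-43WT replicate 2 of that age for P2ry13 (199). In TDP-43A315T MN-TRAP, Fcrls was high in replicate 3 at 14 weeks (36.7) and in replicate 2 at 9 weeks (62.4), and Sall1 in replicate 3 at 9 weeks (145). In the spinal cord, Tmem119 was high in TDP-43A315T replicate 4 at 14 weeks (509.5), and P2ry13 (242) and Fcrls (326) in TDP-43WT replicate 3 at 14 weeks.

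The reduction from spinal cord to MN-TRAP differed between lines in 6 tests across all genes by edgeR, with all libraries taken as independent. It was stronger in TDP-43A315T than in Chat bacTRAP for Fcrls by -1.93 on the log2 scale, and stronger than in TDP-43WT for P2ry13 (-2.42), Siglech (-2.42), Fcrls (-2.07), Csf1r (-1.94) and Sall1 (-1.5).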

How the results depend on the processing

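In the spinal cord the count of members called was 0 under every alternative, including each omission of a library. The alternative with no minimum fold was run on the main fit alone. By adjusted p alone, limma-voom passed P2ry12, Fcrls, Csf1r, Cx3cr1 and Siglech in some comparisons, all below 2-fold. In MN-TRAP, in the order TDP-43A315T relative to Chat bacTRAP and TDP-43WT at 14 weeks and then at 9 weeks, the counts of 5, 4, 0 and 4 became 0, 0, 0 and 0 with libraries of the same fraction alone or of the same fraction and age alone, and 0, 1, 0 and 0 with limma-voom. DESeq2 gave 4 relative to Chat bacTRAP at 9 weeks. Omission of 4 shallow libraries gave 8, 5, 4 and 5, and of the 3 Lamr1-ps1 libraries 6, 8, 6 and 7. Omission of single libraries gave 1 to 6, 1 to 7, 0 to 5 and 0 to 7. Between control lines these omissions gave 0 to 1 at 14 and 0 to 3 at 9 weeks, and for age in Chat bacTRAP MN-TRAP 0 to 5. MN-TRAP against spinal cord gave 9 to 9 in TDP-43A315T, 5 to 8 in TDP-43WT and 7 to 9 in Chat bacTRAP, and Chat bacTRAP gave 6 without the shallow libraries. For the difference from Chat bacTRAP (1) the counts were 2 with DESeq2, 0 with limma-voom, 6 without the Lamr1-ps1, 5 without the Y-linked and 7 without the shallow libraries, and 0 to 5 without single ones; for that from TDP-43WT (5) they were 0 with limma-voom, 8 without the Lamr1-ps1 libraries and 0 to 7. With the spinal cord libraries alone, 30 and 40 genes were called at 14 weeks, in place of 4 and 5. No call reversed its direction, and the cause of these shifts was not tested. The shares of all genes called with DESeq2, with limma-voom or after omissions are not given here. No excess among the members is read from those counts.

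The replicate numbers are shared by groups, and the titles do not say whether they pair the libraries. Same-numbered spinal cord and MN-TRAP libraries had a median correlation of 0.03, with 5 of 25 pairs over 0.1, all of them in TDP-43A315T. These correlations do not settle whether the numbers pair libraries. With the replicate number as a block the counts were 5, 3, 0 and 2 in MN-TRAP, and 0 and 0 for the differences from Chat bacTRAP and TDP-43WT.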

Other observations

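In MN-TRAP the members varied together less evenly than in the spinal cord. Over 25 libraries, with each group's mean removed, Pearson's r of a member with the mean of the others ran from 0.28 for Gpr34 to 0.86 for Csf1r. Sall1, which stood apart in the spinal cord, had an r of 0.78. Without the 2 libraries farthest from the median, Gpr34 fell to an r of 0.04, Tmem119 from 0.45 to 0.13 and Sall1 to 0.60. These values share library, depth and scaling and are given without a test.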
